A study of Saccharomyces cerevisiae with 6 samples.

Results

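The libraries described here are the 3 ethanol vehicle libraries of a 6-library mRNA sequencing series on meiosis in Saccharomyces cerevisiae, chosen by their labels alone. All were from strain SK1, a laboratory strain that enters meiosis quickly and evenly, with the genotype given as WT. Cells were moved to sporulation medium, received ethanol after 5 h, and were collected 1, 1.5 and 2 h later, at 6, 6.5 and 7 h of sporulation. The other 3 libraries had an inducer, bEST, added in place of ethanol, to give high levels of spliced HAC1 mRNA, and are not described here. The labels do not name the construct, so whether the vehicle cells carried it is not known from them. There was 1 library per time, and nothing in the labels says whether the 3 came from 1 culture. Every difference between times is therefore also a difference between libraries, the effects of time and library cannot be told apart, and no test was made.

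Meiosis in budding yeast runs on a cascade of transcription factors. Starved cells switch on IME1, whose product turns on early genes for DNA replication, recombination and chromosome pairing. NDT80 then commits the cell to the divisions by turning on the middle genes, which also build the prospore membrane and begin the spore wall. Genes for the outer, dityrosine layer of the wall and for spore maturation follow. Cells in acetate sporulation medium also make sugars from acetate through the glyoxylate cycle, degrade old proteins by autophagy and reduce ribosome production.

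The deposited values were RPKM, by name reads per kilobase of open reading frame (ORF) and per megaread, so levels can be roughly compared between genes. Low values matched division by coding length less 60 bp rather than by full length. That raises short ORFs relative to long ones, so the rank of a short ORF by level is uncertain. Of 6679 ORFs, 5670 averaged at least 20 across these libraries and were kept, and 1009 were left out. The values correspond to 13.3, 6.02 and 11.7 megareads at 6, 6.5 and 7 h, so the 6.5 h library was the shallowest. One read in an ORF of 1 kb was worth 0.234, 0.512 and 0.265 at the 3 times. Differences are on log2(value + 1), which understates the change of low genes, and an error given with one is the counting standard error (SE) from the recovered reads, which covers counting error only. Across the kept ORFs the libraries correlated at a Pearson r of 0.984 to 0.987. In bulk RNA, fewer cells of a type and less RNA per cell cannot be told apart.

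A small number of ORFs held much of the signal in these libraries. The 20 most abundant ORFs held 23.6, 28.0 and 29.8% of the summed values at 6, 6.5 and 7 h. First came CCW22 (YDR134C), a cell wall protein gene that the S288C reference lists as a pseudogene, with 166256, 238620 and 232825. It was followed by YDR133C, which bears the neighbouring number and is not in the reference gene table, with 136273, 169989 and 197473. Reads of overlapping ORFs may be split or counted for both, so this pair is uncertain. CCW22 is a relative of the cell wall gene CCW12, which was far lower at 1478, 1715 and 1042 and was chosen after its values were seen.

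The sporulation gene SPS4 had 94147, 112223 and 162429, the highest level of any gene in the lists used here. ADY2, the acetate transporter, had 88936, 87676 and 94066. Genes of the forming spore were also among the 20. SPR2, a putative spore wall protein gene, had 38124, 42749 and 55510. SPO19, for a GPI protein of the prospore membrane, had 36005, 37702 and 43124. SPO24, for a small protein of the same membrane, had 31987, 30883 and 32455. PIR5, a cell wall protein gene, and ATG8, the ubiquitin-like protein of autophagy, were also among the 20. PIR5 had 22706, 30206 and 33770, and ATG8 had 15711, 18018 and 23721. The rest of the 20 were RGI2, ZEO1, DPA10, HOR7, RDL1, ACB1, RRT5, YDR042C, YPR077C, YPR078C and YDR278C, with means below the levels of SPO24 except for YDR278C. That ORF, not in the reference gene table, had 44936, 104758 and 35792 and was the only one of the 20 to differ at least 2-fold in both half-hours.

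**Figure D1:**
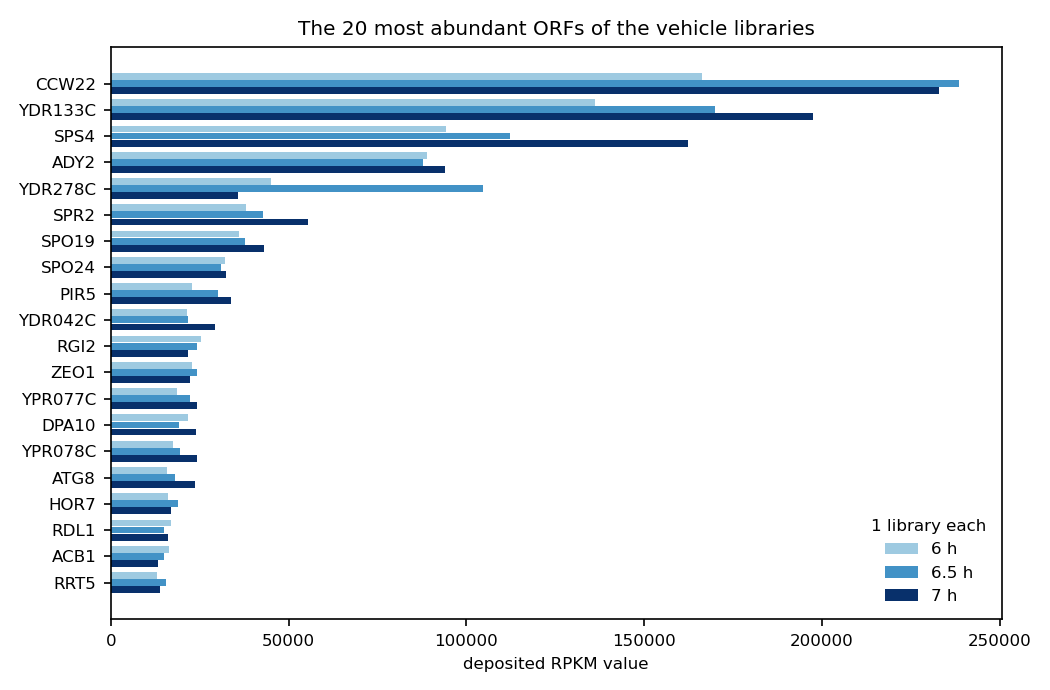
Deposited RPKM values of the 20 ORFs with the highest mean over the 3 vehicle libraries, 1 bar per library from 6 h (pale) to 7 h (dark). SPS4, SPR2 and ATG8 have their highest bar at 7 h, at 162429, 55510 and 23721, while YDR278C stands out at 6.5 h with 104758.

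The meiotic gene lists differed in level, with the lowest medians for replication genes and the highest for septin genes. Premeiotic DNA replication genes had a median of 87.1, 85.7 and 65.0 at 6, 6.5 and 7 h. The double-strand break genes had 190, 196 and 173, and the synaptonemal complex and crossover genes had 293, 266 and 234. Genes of the chromosome axis and of meiosis I cohesion had 472, 506 and 477, and strand exchange genes had 938, 679 and 686. For comparison, the median of all kept ORFs was 173, 164 and 150.

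Among the regulators, IME2, the kinase that drives entry into meiosis, had 5293, 3571 and 4136. IME1 had 2063, 1748 and 1745. NDT80 had 2593, 2468 and 2695. Both master transcription factors were thus well above the median of all ORFs at all 3 times. Of recombination genes, DMC1, the meiosis-specific recombinase, was highest at 4969, 4194 and 4555. REC8, the meiotic cohesin subunit, had 962, 784 and 869. HOP1, an axis protein gene, had 1090, 925 and 872. Lower levels were found for ZIP1, a gene of the synaptonemal complex, with 605, 493 and 500. SPO11, for the enzyme that cuts DNA to start recombination, was lower still with 386, 341 and 336.

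Genes of the meiotic divisions had a median of 566, 526 and 483. CLB1, a cyclin active in meiosis I, had 2401, 2187 and 2316. CLB3, a cyclin whose protein is held back until meiosis II, had 1618, 1755 and 1668. CLB4, another B-type cyclin gene, had 823, 737 and 745. The 3 cyclin genes kept the same order of level at each time. CDC5, the polo kinase, had 1293, 1154 and 1225. CDC20, an activator of the anaphase-promoting complex, had 1024, 1131 and 1092. Between any pair of times these 5 genes differed by 0.16 at most, whereas AMA1, the meiosis-specific activator of the same complex, had 3888, 4450 and 5331.

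The lists of genes that build the spore had higher medians than those above. The medians were 1472, 1347 and 1520 for the meiotic outer plaque and leading edge, 1110, 1293 and 1004 for prospore membrane growth, and 3991, 3867 and 4144 for the sporulation septins with GIP1. Spore wall glucan and mannan genes had a median of 2624, 2556 and 2736. Of their 16 members, 12 were among the top 10.0% of kept ORFs by mean, as were 6 of 8 septin genes, 7 of 11 plaque genes and 10 of 19 prospore membrane genes. The same held for 5 of 12 strand exchange genes, 5 of 14 master regulators, 8 of 32 division genes, 2 of 19 synaptonemal complex and crossover genes, 1 of 12 double-strand break genes, 1 of 13 axis genes and 0 of 28 kept replication genes. SSP1, a leading edge protein gene, had 2599, 2106 and 2398, and SPO21 and MPC54, for outer plaque subunits on which the prospore membrane starts, had 1089, 902 and 968, and 880, 813 and 809. GIP1, which targets a phosphatase to the septins, had 3368, 3232 and 3462. SMK1, the kinase needed for spore wall assembly, had 2334, 2260 and 2216.

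The lists of haploid and mating genes and of mitotic G1 and daughter-cell genes, chosen as markers of cells outside meiosis, had low medians. Whether such cells would express these genes was not tested, so the lists do not show how many such cells there were. Haploid and mating genes had a median of 55.8, 58.4 and 59.3, and their summed level was 0.132, 0.117 and 0.135% of all values. Of 24 such genes 17 passed the filter and 1 was in the top 10.0%: STE18, the gamma subunit of the pheromone-response G protein, with 2304, 2109 and 2518. The pheromone gene MF(ALPHA)1 had 6.81, 7.77 and 4.34, and HO, the mating-type switching endonuclease, had 29.4, 25.8 and 20.8. No gene of this list was at 0. Mitotic G1 and daughter-cell genes had a median of 52.0, 57.1 and 46.1, with 0.035, 0.034 and 0.032% of all values, and the G1 cyclin CLN2 stood at 15.1, 20.7 and 16.4. Genes chosen as markers of spores differed in level. SPS4 was the most abundant list gene, while SPS100, a spore maturation gene, had 32.3, 34.0 and 37.8. Between them, DIT1 had 200, 593 and 1407, and DIT2 had 353, 503 and 891.

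**Figure D2:**
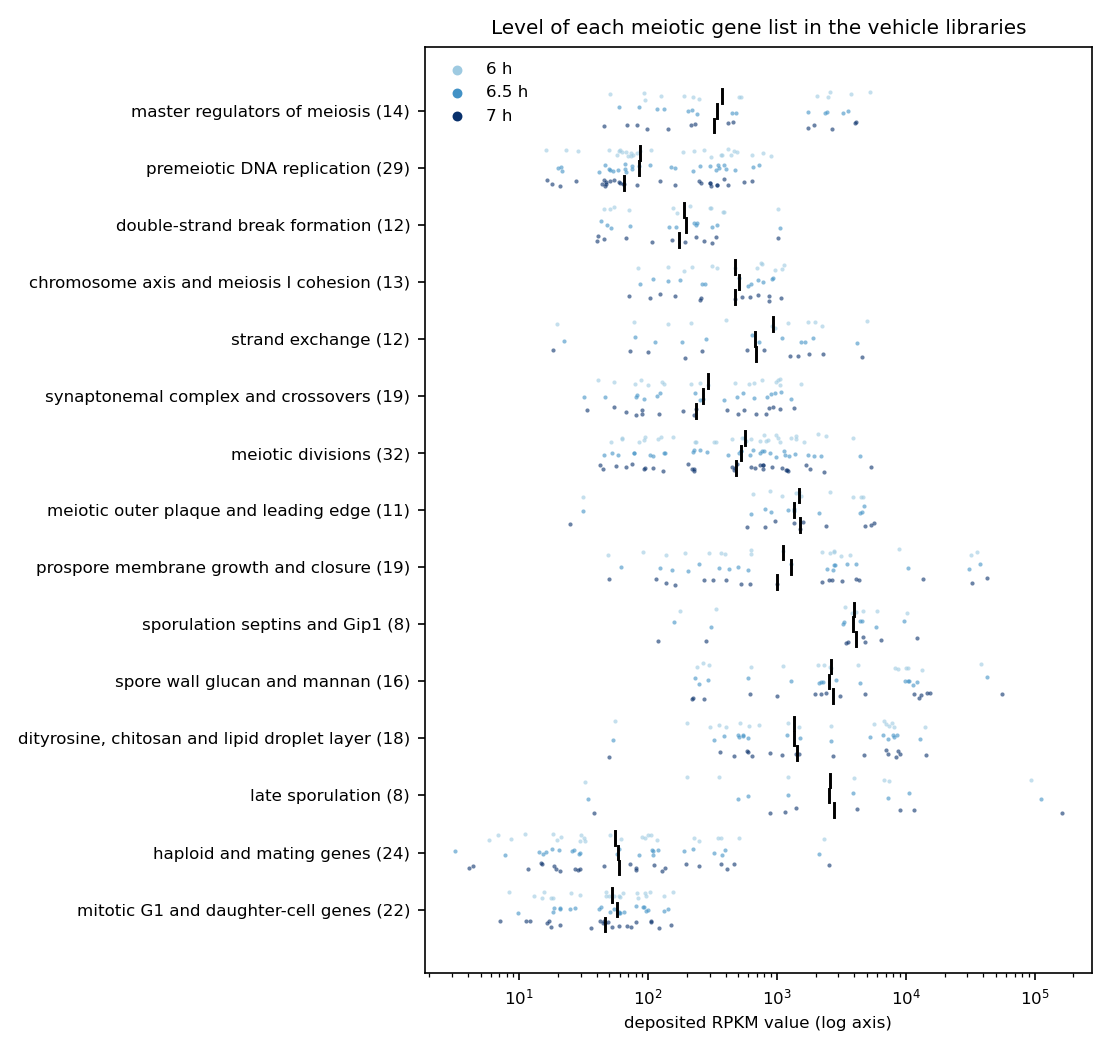
Deposited RPKM values (log axis) of every member of 15 gene lists, with the number of genes in parentheses; points are genes, colours are 6, 6.5 and 7 h from pale to dark, and black ticks are list medians. At 6 h the list medians go from 87.1 for replication genes to 3991 for septin genes, except for the haploid and mitotic G1 lists at the bottom. Both of these have medians below 60 at each time.

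From 6 to 7 h most transcripts moved little and mostly downward in value. Of 5670 kept ORFs, 17 were at least 2-fold higher at 7 h than at 6 h (0.300%) and 88 at least 2-fold lower (1.55%). The median of all kept ORFs was -0.19 for 7 h minus 6 h, with -0.10 in each half-hour, while the top 20 ORFs took a growing share of the total. When the libraries were instead scaled by the median ratio, which sets this median to about 0, the counts became 40 higher and 33 lower, so higher ORFs made up 54.8% of those called, against 16.2% as deposited. The counts in each direction thus rest on the scaling, and list changes are given below relative to the median of all ORFs. In order over the 3 times, 15 were at least 2-fold higher (0.265%) and 78 at least 2-fold lower (1.38%). At any size, values ran in rising order over 6, 6.5 and 7 h in 400 ORFs (7.05%) and in falling order in 2112 (37.2%). The highest value was at 6.5 h in 1636 ORFs (28.9%) and the lowest in 1522 (26.8%).

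DIT1 had the largest increase of all. DIT1 and DIT2 encode the enzymes that make and join the dityrosine of the outer spore wall, and lie next to each other in the reference genome. DIT1 had 200, 593 and 1407 at 6, 6.5 and 7 h, a 7 h minus 6 h difference of 2.81 ± 0.04 (counting SE). DIT2 had 353, 503 and 891, a difference of 1.33 ± 0.04. Both were higher at each later time. SPS4, already at 94147, differed by 0.79 and SGA1, the sporulation-specific glucoamylase that breaks down glycogen, by 0.64, with 7464, 10589 and 11610. Together with DIT1 and DIT2 these belong to the late sporulation list. All 8 of its genes lay above the median of all ORFs, and the list's median was 0.71 above that of all ORFs. At least 2-fold higher were 2 of 8, DIT1 and DIT2 themselves, against 0.300% of all ORFs.

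Of the 17 ORFs at least 2-fold higher at 7 h, 13 were in no list used here, and DDR2 and SSA3 were in the stress and chaperone lists. DDR2, a stress-induced gene, had 1879, 5954 and 9337, a difference of 2.31 ± 0.05. HXT10, a hexose transporter gene, had 6065, 8647 and 12809. SSA3, an inducible Hsp70 gene, had 1084, 2233 and 2315. These were abundant at 6 h already, whereas PMA2, the minor isoform of the plasma membrane proton pump, had 41.9, 92.4 and 89.9. CWP2, a cell wall mannoprotein gene, had 666, 1108 and 1409, and GID10, a substrate receptor of the GID ubiquitin ligase, had 189, 336 and 591. YLR012C, an ORF without a gene name, had 470, 1280 and 2827. The others were YDL218W, SDD1, ICS2, FMP45, FAT3 and DPC7, with differences of 1.01 to 2.67, and the short ORFs YPR159C-A and YHL048C-A, which had fewer than 20 reads in a library. All but 2 of the 17, FMP45 and PMA2, were in rising order.

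**Figure D3:**
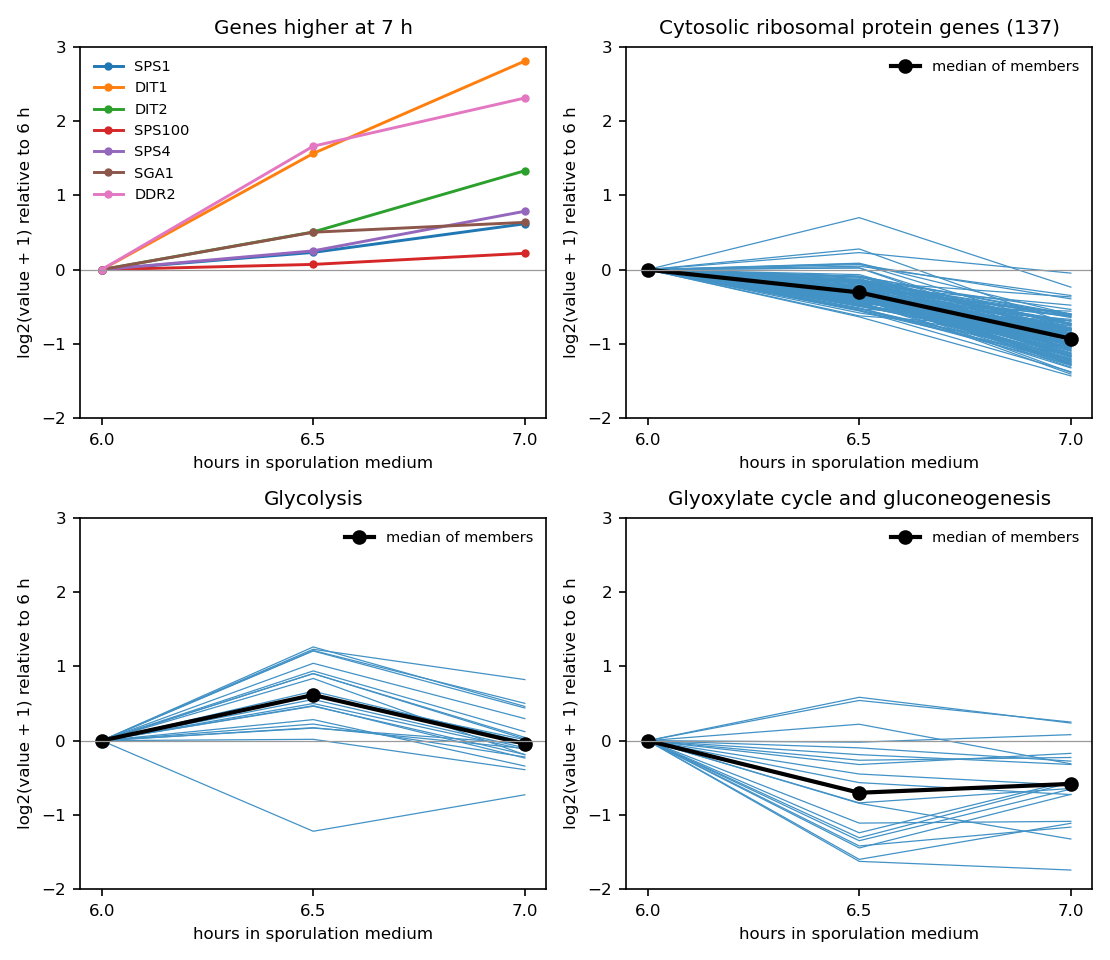
Difference in log2(value + 1) from the 6 h library at 6, 6.5 and 7 h for 7 genes higher at 7 h, 137 cytosolic ribosomal protein genes, 21 glycolysis genes and 20 glyoxylate cycle and gluconeogenesis genes; thin lines are genes and black lines list medians. DIT1 reaches 2.81 at 7 h, the ribosomal protein median reaches -0.93, and glycolysis genes are highest at 6.5 h in 20 of 21 cases.

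The largest group with lower values at 7 h was that of the cytosolic ribosomal proteins. Of the 88 ORFs at least 2-fold lower, 52 (59.1%) encoded one, and these were 38.0% of the 137 ribosomal protein genes, against 1.55% of all ORFs. Under median-ratio scaling 21 of the 137 were at least 2-fold lower. Their median difference was -0.93, or -0.74 relative to all ORFs, and 136 of 137 lay below the median of all ORFs. The sum of their values was 3.01, 2.38 and 1.58% of the total at 6, 6.5 and 7 h. In 128 genes the values were in falling order, against 37.2% of all ORFs. In 120 the second half-hour had the larger decrease, and the half-hour medians were -0.31 and -0.63.

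Both subunits took part about equally. Large subunit genes had a median of 538, 434 and 264 and 30 of 81 at least 2-fold lower. Small subunit genes had a median of 746, 602 and 388 and 22 of 56 at least 2-fold lower. Among the largest decreases were RPL16B with 493, 317 and 182 (-1.43 ± 0.08), RPL1B with 216, 165 and 80.8 (-1.41 ± 0.12), and RPS31, a fusion of ubiquitin and a small subunit protein, with 2274, 1797 and 869 (-1.39 ± 0.04). RPS31 is encoded once, but most of these genes are pairs of near-identical copies, between which the counting could split reads, so a single copy is uncertain. A few members moved less. RPS22B had 447, 525 and 433, and was the 1 member above the median of all ORFs. RPL38 had 1559, 1393 and 1208, and RPL29 had 3659, 3836 and 2785.

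The rest of the protein synthesis machinery was lower too, in fewer genes. Of 61 kept ribosome biogenesis genes, of 66 on the list, 5 were at least 2-fold lower, against 1.55% of all ORFs. Their median was -0.40 relative to all ORFs. NOP2, a 25S rRNA methyltransferase, had 45.1, 27.3 and 18.5 (-1.24 ± 0.14), and KRR1, HAS1 and RPA135, a subunit of RNA polymerase I, differed by -1.07, -1.07 and -1.06. RPF2 and NOP16 had differences of 0.45 and 0.23. Of 38 translation factor genes 3 were at least 2-fold lower, against the same 1.55%, with a median of -0.37 relative to all ORFs. The list leaves out the translation genes ANB1 and TEF4, which differed by -1.60 and -1.07. YEF3, fungal elongation factor 3, had 582, 349 and 214 (-1.44 ± 0.03). EFT1, elongation factor 2, had 27.5, 21.8 and 12.2, and TIF1, the helicase eIF4A, had 68.8, 52.9 and 33.5. EFT1 and TIF1 each have a near-identical copy, EFT2 and TIF2, which differed by -0.76 and -0.91. Under median-ratio scaling 1 gene of each of these 2 lists was at least 2-fold lower. SSB1, a ribosome-bound Hsp70 with a close copy in SSB2, had 110, 80.5 and 44.8 (-1.28 ± 0.09), and GCN4, the translationally controlled activator of amino acid synthesis, had 4431, 3935 and 2505.

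Histone, proteasome and replication genes had medians below that of all ORFs by smaller amounts. Of their members 0 were at least 2-fold lower, which at 1.55% of all ORFs does not set lists of these sizes apart. All 10 histone genes lay below the median of all ORFs, and their median was -0.51 relative to it, with median levels of 4688, 3357 and 3123. HTB2, one of 2 near-identical genes for H2B, had 3083, 1655 and 1690 (-0.87). Of 34 proteasome genes 32 lay below the median of all ORFs, and 27 were in falling order, against 37.2% of all ORFs. The list's median was -0.26 relative to all ORFs. PRE6, an alpha-ring subunit, had 2450, 1893 and 1494. Of 28 kept replication genes 25 were below the median of all ORFs, with a list median of -0.22 relative to it. CDC9, the DNA ligase, had 50.1, 41.2 and 27.7 (-0.83), and RFA1 and RFA2, subunits of the single-strand binding protein RPA, differed by -0.60 and -0.61. Not one of the 28 was in rising order, against 7.05% of all ORFs, which at this list size does not set them apart.

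The recombination and division genes moved with the bulk of the transcriptome. Relative to all ORFs the median difference was 0.02 for double-strand break genes, 0.03 for strand exchange, -0.01 for the synaptonemal complex and crossovers, 0.00 for the divisions, -0.03 for the master regulators and -0.12 for the axis. Of the 102 entries in these 6 lists 0 were at least 2-fold changed, against 0.300% of all ORFs higher and 1.55% lower, so at this list size the count does not set them apart. DMC1 differed by -0.13. SMC3, a cohesin subunit shared with mitosis, had 188, 142 and 125 (-0.59), and the meiotic subunit REC8 differed by -0.15. BUB3, a spindle checkpoint gene, had 323, 255 and 204 (-0.66), or -0.47 relative to all ORFs, and AMA1 differed by 0.46, or 0.65 relative to all ORFs. UME6, which represses early meiotic genes during growth, and SUM1, which represses middle genes before NDT80 acts, differed by -0.40 and -0.46, both from levels below 210.

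Spore-building lists lay above the median of all ORFs, with differences that did not reach 2-fold outside DIT1 and DIT2. Relative to all ORFs the medians were 0.25 for the dityrosine, chitosan and lipid droplet list, 0.24 for spore wall glucan and mannan, 0.24 for septins, 0.21 for prospore membrane growth and 0.08 for the outer plaque. In the spore wall list 15 of 16 genes were above the median of all ORFs. SPR1, an exoglucanase, had 8277, 9807 and 13157 (0.67). SSP2, an activator of Smk1, had 10352, 10696 and 15549 (0.59), and SPR6 had 8651, 11422 and 12636 (0.55). SPS1, a kinase needed for prospore membrane closure, had 8862, 10410 and 13603 (0.62). SPR3, a sporulation septin, had 10141, 9710 and 12142 (0.26). Each of these 5, named as fixed markers or for large changes, was highest at 7 h. Members higher at 7 h than at 6 h, as deposited, were 8 of 16 for the spore wall and 5 of 8 for septins. The same held for 11 of 19 prospore membrane genes, 4 of 11 outer plaque genes and 11 of 18 in the dityrosine list. For all kept ORFs the upper quartile of the 7 h minus 6 h difference was -0.02. CDA2, a chitin deacetylase for the chitosan layer, hardly moved at 14098, 12947 and 14496.

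**Figure D4:**
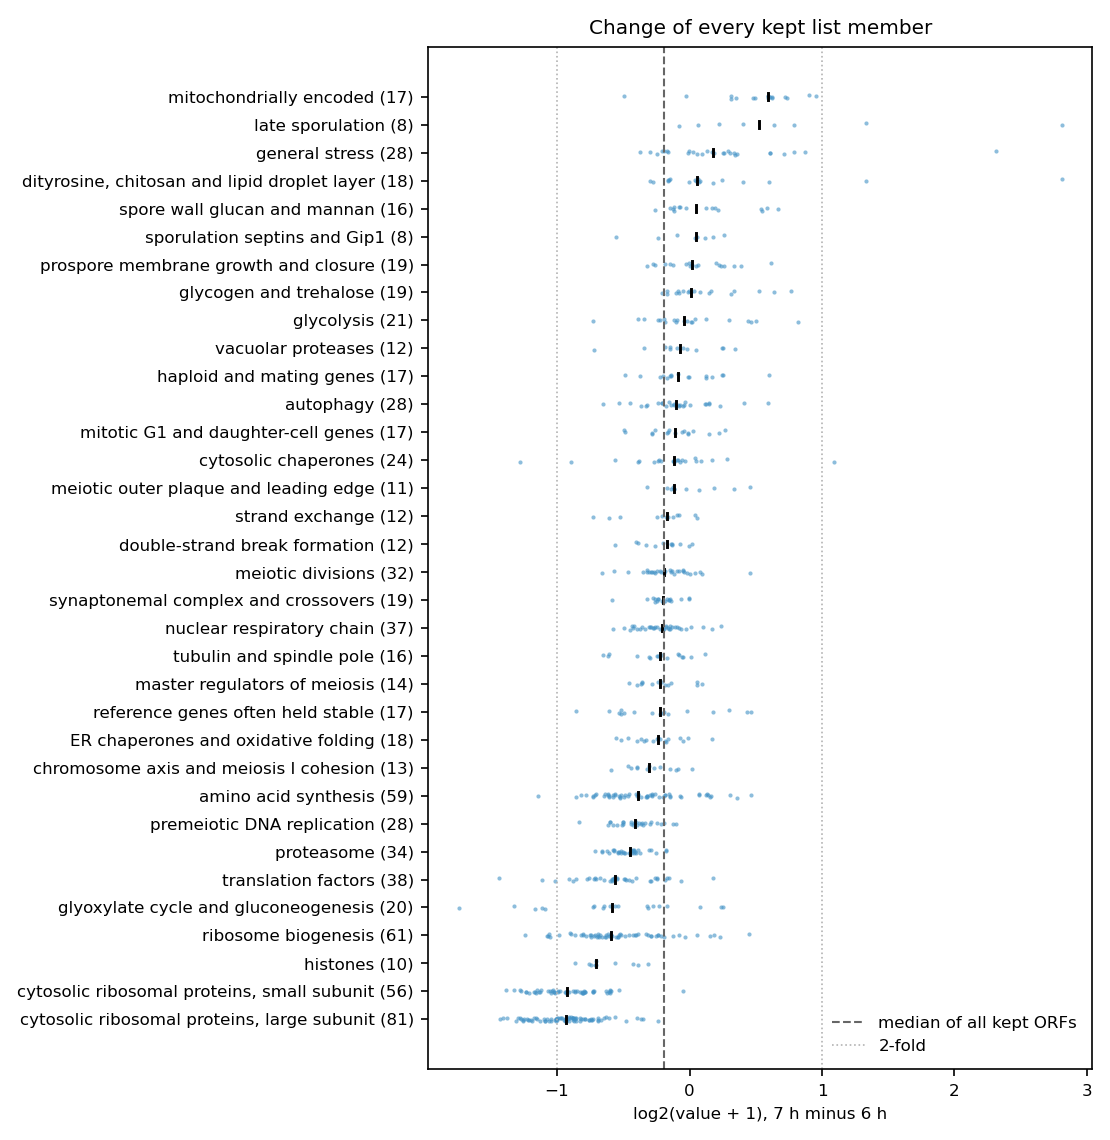
Difference in log2(value + 1), 7 h minus 6 h, of every kept member of 34 gene lists (points, with the number of genes in parentheses), ordered by list median (black ticks); the dashed line is the median of all kept ORFs, -0.19, and dotted lines mark 2-fold. The ribosomal protein lists lie at the low end with medians of -0.93, and the late sporulation list, with DIT1 at 2.81, near the high end.

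The 6.5 h library had patterns of its own in carbon metabolism. Between 6 and 6.5 h, 20 ORFs were at least 2-fold higher (0.353%) and 36 lower (0.635%). Between 6.5 and 7 h, 21 were higher (0.370%) and 18 lower (0.317%). Of these 95 calls 29 were of ORFs absent from the reference table and 19 of ORFs with fewer than 20 reads in a library. With at least 20 reads in every library, a condition added after seeing the data that also drops ORFs with no known length, the counts were 15, 17, 6 and 9 in the same order. The 6.5 h library was also the shallowest, and the part of depth in these patterns was not tested.

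Glycolysis genes were highest at 6.5 h in 20 of 21 cases, against 28.9% of all ORFs. Their median was 336, 497 and 341, with a difference of 0.61 in the first half-hour and -0.65 in the second. PGK1, phosphoglycerate kinase, had 509, 1222 and 701. GPM1, phosphoglycerate mutase, had 771, 1782 and 1046. ENO1, an enolase, had 476, 1105 and 675. These 3, with TDH1 and TDH3 for glyceraldehyde-3-phosphate dehydrogenase, were at least 2-fold higher at 6.5 h than at 6 h, and none of the 5 remained so at 7 h relative to 6 h. TDH1, TDH2 and TDH3 are near-identical and reads may be split between them. ADH2, the alcohol dehydrogenase that consumes ethanol, had the opposite order with 7952, 3411 and 4796 and is the 1 exception.

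Genes for the glyoxylate cycle, gluconeogenesis and the carnitine shuttle went the other way. Their median was 2793, 1625 and 1945, the median difference was -0.70 in the first half-hour and 0.03 in the second, and 11 of 20 were lowest at 6.5 h, against 26.8% of all ORFs. CIT2, the peroxisomal citrate synthase, had 14369, 5799 and 9716. CRC1, the mitochondrial carnitine carrier, had 6121, 2246 and 3706, and the carnitine acetyltransferase genes CAT2 and YAT2 had 3033, 1283 and 2084, and 2840, 1115 and 1806. These 4 were partly back at 7 h. FBP1, fructose-1,6-bisphosphatase, was not, with 1069, 345 and 318, a 7 h minus 6 h difference of -1.74 ± 0.05 that was the largest decrease of all kept ORFs. At 7 h, 5 of 20 genes were at least 2-fold lower than at 6 h, against 1.55% of all ORFs: FBP1, YAT1, MLS1 (malate synthase), SFC1 (the succinate-fumarate carrier) and MDH2 (cytosolic malate dehydrogenase). Under median-ratio scaling 2 of the 20 were. ADY2 and JEN1, transporters for acetate and lactate, differed by 0.08 and -0.17.

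Respiratory chain, chaperone and stress genes shared the higher level at 6.5 h. Nuclear respiratory chain genes were highest there in 33 of 37 cases, with a median of 1715, 1903 and 1357, and 30 of the 37 were in the top 10.0% of ORFs. ATP14, an ATP synthase subunit, had 1781, 1987 and 1196, and QCR9, a subunit of complex III, had 3392, 4675 and 3808. Cytosolic chaperone genes were highest at 6.5 h in 19 of 24 cases and general stress genes in 18 of 28. Glycogen and trehalose genes were highest there in 14 of 19 cases. Of all kept ORFs, 28.9% were highest at 6.5 h, the share to set beside each of these lists. HSP12, a membrane-stabilising stress protein gene, had 4305, 5849 and 6571, and GSY2, glycogen synthase, had 104, 154 and 177. These 2 went on to be highest at 7 h. Relative to all ORFs the 7 h minus 6 h median was 0.37 for general stress, with 24 of 28 genes above the median of all ORFs, and 0.20 for glycogen and trehalose, with 18 of 19. It was 0.15 for glycolysis, 0.08 for chaperones and -0.02 for the respiratory chain.

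**Figure D5:**
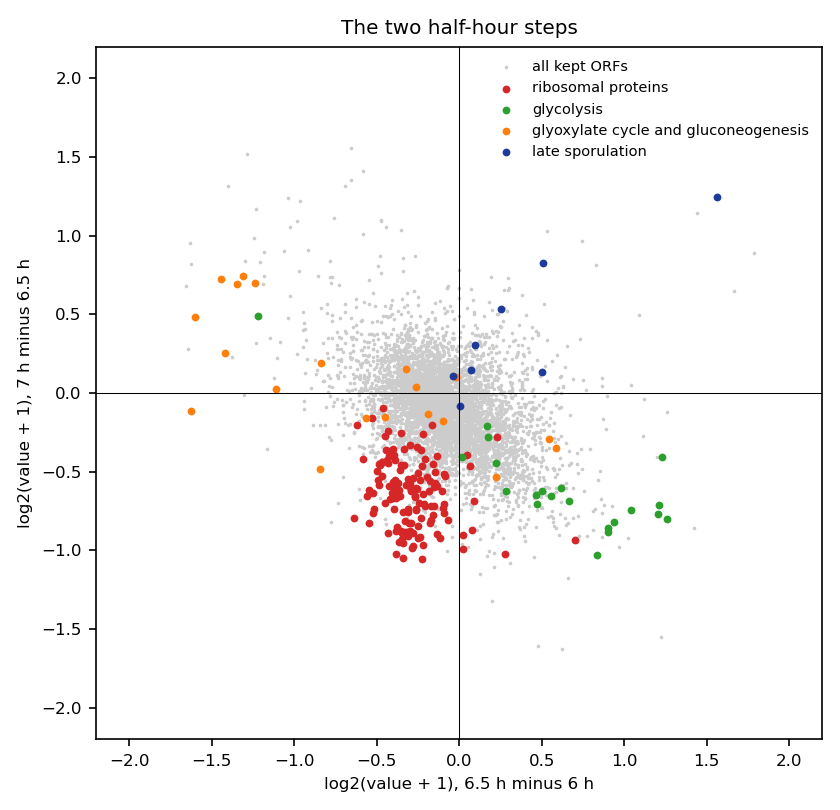
Difference in log2(value + 1) of all kept ORFs in the first half-hour (horizontal axis, 6.5 h minus 6 h) and in the second (vertical axis, 7 h minus 6.5 h), with 4 gene groups coloured; 2 ORFs lie outside the axes. Ribosomal protein genes fill the lower left with medians of -0.31 and -0.63, glycolysis genes the lower right, most glyoxylate cycle genes the left, and late sporulation genes the upper right.

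The other lists of nuclear genes had medians on both sides of that of all ORFs. Relative to all ORFs the median difference from 6 to 7 h was 0.12 for vacuolar proteases, 0.09 for autophagy, -0.03 for tubulin and spindle pole genes, -0.05 for endoplasmic reticulum (ER) chaperones and -0.19 for amino acid synthesis, where 17 of 59 genes were above the median of all ORFs. The vacuolar protease gene PEP4 had 5108, 5863 and 6093, and PRB1, another, had 2128, 2022 and 1294. GLN1, glutamine synthetase, went against its list with 8764, 11012 and 12099 (0.47), and SHM2, serine hydroxymethyltransferase, was at least 2-fold lower with 208, 149 and 93.6. The tubulin genes TUB1 and TUB2 differed by -0.60 and -0.65. HAC1, the transcription factor of the unfolded protein response, had 127, 128 and 98.4, and KAR2, the ER Hsp70 that it controls, had 964, 1063 and 798.

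Genes often used to normalise yeast expression data did not keep 1 level. Over 17 of them the 7 h minus 6 h difference ran between -0.85 for TEF1 and 0.46 for PGK1. ACT1, actin, had 1150, 1229 and 803 (-0.52), and ALG9, a mannosyltransferase, had 630, 686 and 851 (0.43). TFC1, a subunit of transcription factor TFIIIC, had 86.9, 74.9 and 77.6 (-0.16), close to the median of all ORFs. The list's median was -0.03 relative to all ORFs.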

How the data were processed

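Poly(A)-selected, directional mRNA libraries were sequenced from 1 end for 50 bp, per the labels' protocols. The authors deposited RPKM values for each ORF, with SAMtools, TopHat and Bowtie2 per the submitters' processing notes. Not given in the sources used here are versions, genome build, annotation and strand handling, so overlapping, antisense and near-identical genes are uncertain. Columns were matched to samples by name, with 0 unmapped columns. Low values were whole multiples of 1 read's worth over coding length less 60 bp: 74.1, 79.9 and 75.7% of values below 40 reads were whole within 0.02, against 4.44 to 6.97% without the offset. For ORFs with a length, the values are 3.08 to 3.11 times what 1 read in an ORF of 1 kb would give per recovered megaread, for which no reason is stated. Recovered reads gave depth and counting errors only, and no count test was run.

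Symbols and coding lengths came from the S288C assembly R64 gene table, which held 5994 of the identifiers and lacked 685. No coordinates are given, and promoter motifs were not analysed here. Values were taken as log2(value + 1), ORFs with a mean of at least 20 were kept, and a change of 2-fold was counted. With 1 library per time, no test was made. The 34 lists hold 853 genes, all found; ribosomal protein genes form 2 of them. The members and lists were chosen with earlier results of these data known. Genes named were 28 fixed markers, the 20 most abundant ORFs, the 15 largest ordered increases and decreases, the 5 highest and 5 lowest at 6.5 h, and up to 4 with the largest change per list; any other was chosen after its values were seen. The read recovery and calls were run on simulated data with counting error only and planted changes larger than 2-fold. That simulation says nothing of variation between libraries. Python 3.11.15, numpy 2.4.6 and pandas 2.3.3 were used.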

Additional observations from a re-analysis of the deposited data

How the results depend on the processing

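No paired analysis was possible because each time has 1 library. Counts below are given as higher and lower at 7 h against 6 h, then the half-hour steps. A fold of 1.5 gave 108 and 548 (in order over the 3 times, 87 and 463), 101 and 202 for the first step, and 78 and 323 for the second. It gave 129 ribosomal protein genes lower (75 large and 54 small subunit), 32 ribosome biogenesis, 16 translation factor and 10 glyoxylate genes. No filter gave 78 and 175 (40 in rising order), then 88 and 163, and 125 and 106. A mean of at least 5 gave 31 higher, then 34 and 75, and 46 and 46; a mean of at least 100 gave 17 lower in the first step and 6 and 9 in the second, 1 ribosome biogenesis and 1 translation factor gene, and a late sporulation median of 0.81 relative to all ORFs. Median-ratio scaling gave 40 and 33 (35 and 31 in order), 7 lower in the second step, 21 ribosomal protein genes (14 and 7 by subunit), 2 glyoxylate, 1 biogenesis and 1 translation factor gene. A pseudocount of 5 left 2 biogenesis and 1 translation factor gene. Chosen after seeing the data, ORFs in the reference table alone gave 23 lower in the first step and 12 higher in the second; at least 20 reads in every library gave 17 lower, then 6 and 9. The 50 most abundant ORFs held 31.6, 36.6 and 39.7%. In all, 330 of 383 recomputed counts, shares and list medians stayed close to those reported (counts within 1.5 times, list medians within counting error). The list medians in this tally are relative to all ORFs. Rescaling a library hardly moves them, so their agreement under the scalings was fixed in advance and inflates the tally. Between 6 and 7 h, list medians not taken relative to all ORFs that lie between -0.19 and 0 turn positive under median-ratio scaling. No named gene past 2-fold changed direction under another pseudocount or scaling, but none could. A pseudocount keeps the order of 2 values, and these scalings shift every gene by less than 2-fold. The shallow 6.5 h library and short ORFs limit the half-hour counts.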

Other observations

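The values of 4 genes for nitrogen uptake and breakdown are given here. They were chosen for low values after 6 h, form no list used above, and say nothing of other genes of this kind. MEP2, the high-affinity ammonium permease, had 365, 116 and 141 at 6, 6.5 and 7 h. GAP1, the general amino acid permease, had 365, 169 and 197. DAL3, an enzyme of allantoin breakdown, had 267, 83.9 and 135, and CHA1, the serine deaminase, had 217, 99.3 and 106. All 4 were at least 2-fold lower at 6.5 h than at 6 h, and MEP2 and CHA1 still were at 7 h. GLN1, which uses ammonium, was instead highest at 7 h.

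Mitochondrially encoded transcripts had the highest list median, 0.79 relative to all ORFs between 7 h and 6 h, over the 17 of 27 that passed the filter, and 16 of these lay above the median of all ORFs. COX1, COX2 and COX3, for subunits of cytochrome c oxidase, were at least 2-fold higher at 7 h than at 6.5 h. COX1 had 91.7, 65.8 and 142, COX2 had 43.1, 26.3 and 66.8, and COX3 had 97.6, 61.6 and 183. The libraries were poly(A)-selected, and how far that selection sets these values was not tested.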
